A study of Homo sapiens with 30 samples.

Results

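SK-N-BE(2)c cells given the antisense oligonucleotide ASO2 were compared with the same cells given ASO10. The comparison holds 6 of the 30 libraries of the series, 3 with ASO2 and 3 with ASO10, chosen by the treatment and line named in their titles. A further 3 SK-N-BE(2)c libraries with NCA, the negative control ASO, served only to say which side of a difference had moved. SK-N-BE(2)c is an established neuroblastoma line, a clonal subline with amplified MYCN, so its values come from 1 clone. All 3 groups were unmodified cells apart from the ASO, which was transfected at 100 nM with lipofectamine 2000. The series gives NESPR, a long non-coding RNA, as the intended target of both ASO2 and ASO10, so the comparison asks how far cells given one ASO resemble cells given the other. NESPR was not analysed here by its own name. The time from transfection to harvest is not stated in the labels, nor is it stated whether the replicates were separate cultures, so p-values measure only the spread between these libraries, which may be technical.

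An ASO is a short single strand of modified DNA that pairs with RNA in the cell. Many ASOs recruit RNase H1, which cuts the RNA strand of the hybrid, and an oligonucleotide can also pair with RNAs other than the intended one when their sequence is close enough. Neuroblastoma is a childhood tumour of the sympathetic lineage, and adrenergic neuroblastoma cells are kept in their state by a circuit of transcription factors that includes HAND2 and GATA3. Cells answer protein damage through heat shock factors, endoplasmic reticulum (ER) stress through the unfolded protein response, and amino acid shortage or blocked translation through ATF4. Autophagy delivers cell contents to the lysosome with the help of the lipid-bound ATG8 proteins.

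The 9 libraries held 11497829 to 15060356 reads assigned to genes. The number of genes with at least 1 read was 19235 to 20236 with ASO2, 21518 to 21815 with ASO10 and 19939 to 20327 with NCA, so the ASO10 libraries listed more genes than any other. No 2 replicates agreed within sampling noise (chi-square per degree of freedom 2.43 to 5.36). All 12 adrenergic markers had a mean of at least 10 normalized counts, and their sums ran from 70640 to 74880 with ASO2, from 70790 to 74940 with ASO10 and from 85490 to 95140 with NCA. The immune markers CD3E and TYROBP, the endothelial receptor KDR, the basal keratin KRT5 and the Schwann lineage factor SOX10 were at 0 reads in all 9 libraries. The 6 immune markers together summed to 61.9 to 70.7 with ASO2, 96.7 to 105.4 with ASO10 and 30.4 to 38.3 with NCA, low levels that still kept the groups apart. In such bulk RNA, fewer cells expressing a gene and less of its RNA per cell cannot be told apart. The labels name both a total RNA kit and a poly(A) kit and do not say which library had which, so no value could be computed within a kit.

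ASO2 and ASO10 libraries differed in most of the genes measured. Of 13556 genes with a mean of at least 10 normalized counts over the 9 libraries, 65.4% were called different between the ASOs, which means a limma adjusted p under 0.05, and 34.6% were higher with ASO2 while 30.8% were higher under ASO10. In 68.2% of the genes the 3 ASO2 values and the 3 ASO10 values did not overlap. Most of the differences were small, with a median size of 0.40 log2 units against a median standard error (SE) of 0.097. A difference of at least 1 log2 unit, a doubling, was found in 13.9% of the genes, and here the directions were unequal: 4.15% were that much higher with ASO2 and 9.74% that much higher with ASO10. At 2 log2 units or more, 32 genes were higher with ASO2, against 333 in the other direction. Of the 325 such genes higher with ASO10 and with an expressed neighbour on their 5′ side, 49.5% were under 10 with NCA. Many of them passed the limit on the mean through the ASO10 libraries, so their number does not support a difference. At 1 log2 unit the share under 10 with NCA was 21.0% of 1281 genes. The near balance of all calls depended on the scaling. When all libraries were set to the same total, the median over all genes moved from 0.035 to -0.077 and the share of calls higher with ASO2 from 52.9% to 42.3%. All differences below are on the log2(normalized count + 1) scale, ASO2 minus ASO10 unless said otherwise, and this scale understates the difference of low genes. LGALS9 and LINC02916 lay just inside the limit on the mean, with means of 4.24 and 10.1 for ASO2, 20.5 and 10.9 for ASO10 and 5.29 and 9.06 for NCA. TERB1 (3.08, 25.5 and 1.37 in that order) and RTBDN (11.1, 8.39 and 10.5) lay just outside it.

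**Figure D1:**
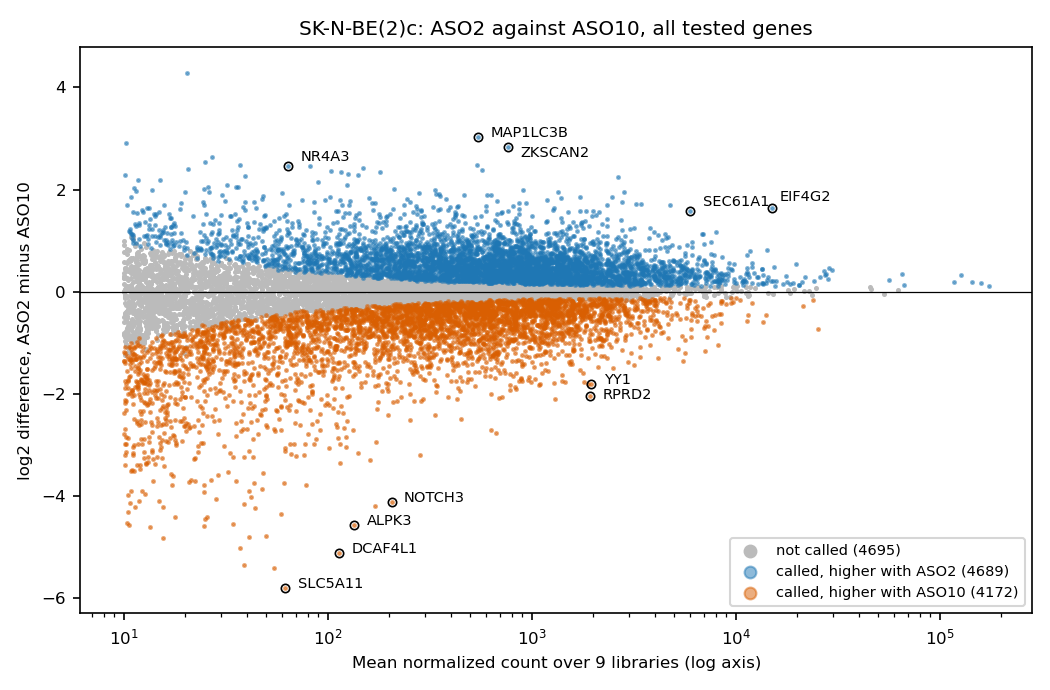
Each point is 1 of the 13556 tested genes, placed by its mean normalized count over the 9 libraries (log axis) and its log2 difference between ASO2 and ASO10; blue and orange points were called and grey points were not. Differences of 2 log2 units and more are mostly genes of low mean that were higher with ASO10 (333 genes against 32). Many of these passed the limit on the mean through the ASO10 libraries. MAP1LC3B, ZKSCAN2, SEC61A1 and EIF4G2 stand out among the better measured genes higher with ASO2.

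MAP1LC3B (ENSG00000140941), which encodes the ATG8 protein LC3B of the autophagosome membrane, led the genes higher with ASO2 and with a mean of at least 100 in the higher group. Its normalized counts were 1001, 1022 and 957 with ASO2, 116, 135 and 114 with ASO10 and 502, 556 and 510 with NCA. The groups were far apart, with ASO2 above NCA and ASO10 below it, and the ASO2 mean was 8.15 times the ASO10 mean (log2 difference 3.02, SE 0.088, limma adjusted p 1.99e-20). ZKSCAN2, a zinc finger protein, had 1440, 1404 and 1747 with ASO2 against 244, 180 and 223 with ASO10, with NCA between them at 507 to 587 (2.83, SE 0.098, limma adjusted p 4.18e-19). The same order of ASO2 above NCA above ASO10 held for RCBTB1 (2.49), for the AMP deaminase gene AMPD3 (2.46), for AP5Z1, a subunit of the adaptor complex AP-5 (2.39), and for the guanylate-binding protein gene GBP2 (2.37). AP5Z1 was at 1080, 992 and 921 with ASO2 and at 192, 185 and 192 with ASO10, around NCA values of 442 to 600. GBP2 was close to NCA with ASO10 (40.4 to 41.9 against 53 to 55.5) and far above it with ASO2 (213 to 219). CXXC4, an inhibitor of WNT signalling, differed by 2.41 because it was low with ASO10. It had 27.6 to 62.3 there, 194 to 252 with ASO2 and 152 to 199 with NCA, and the last 2 groups were not called different (adjusted p 0.13).

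The genes furthest on the other side were near silent with ASO2 and NCA and clearly expressed with ASO10. SLC5A11, a sodium-coupled inositol transporter gene, had 5.53, 0 and 3.60 normalized counts with ASO2, 172, 217 and 136 with ASO10 and 11.5, 5.04 and 7.71 with NCA (log2 difference -5.80, SE 0.47, limma adjusted p 1.68e-11). EFCAB8 (-5.35), the aminopeptidase gene ANPEP (-5.02), FHDC1 (-4.80), and RAPSN, which encodes the protein that clusters acetylcholine receptors at the neuromuscular junction (-4.79), had the same form, with 78.1 to 151 with ASO10 and at most 6.63 with ASO2. The muscle kinase gene ALPK3 reached 351, 364 and 391 with ASO10 against 13.3, 12.7 and 18 with ASO2 and 17.4 to 24.1 with NCA, a 25.2-fold difference between the ASO means (-4.58). CETP, the cholesteryl ester transfer protein gene, had 0 reads in all 3 NCA libraries, 5.53 to 10.8 normalized counts with ASO2 and 137 to 211 with ASO10. In each of these genes the ASO10 libraries were all above the 3 NCA libraries. Their separation from ASO2 was required by the rule that named them. All but ALPK3 passed the limit on the mean through the ASO10 libraries, so their separation and p-values are a description and lend no support.

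**Figure D2:**
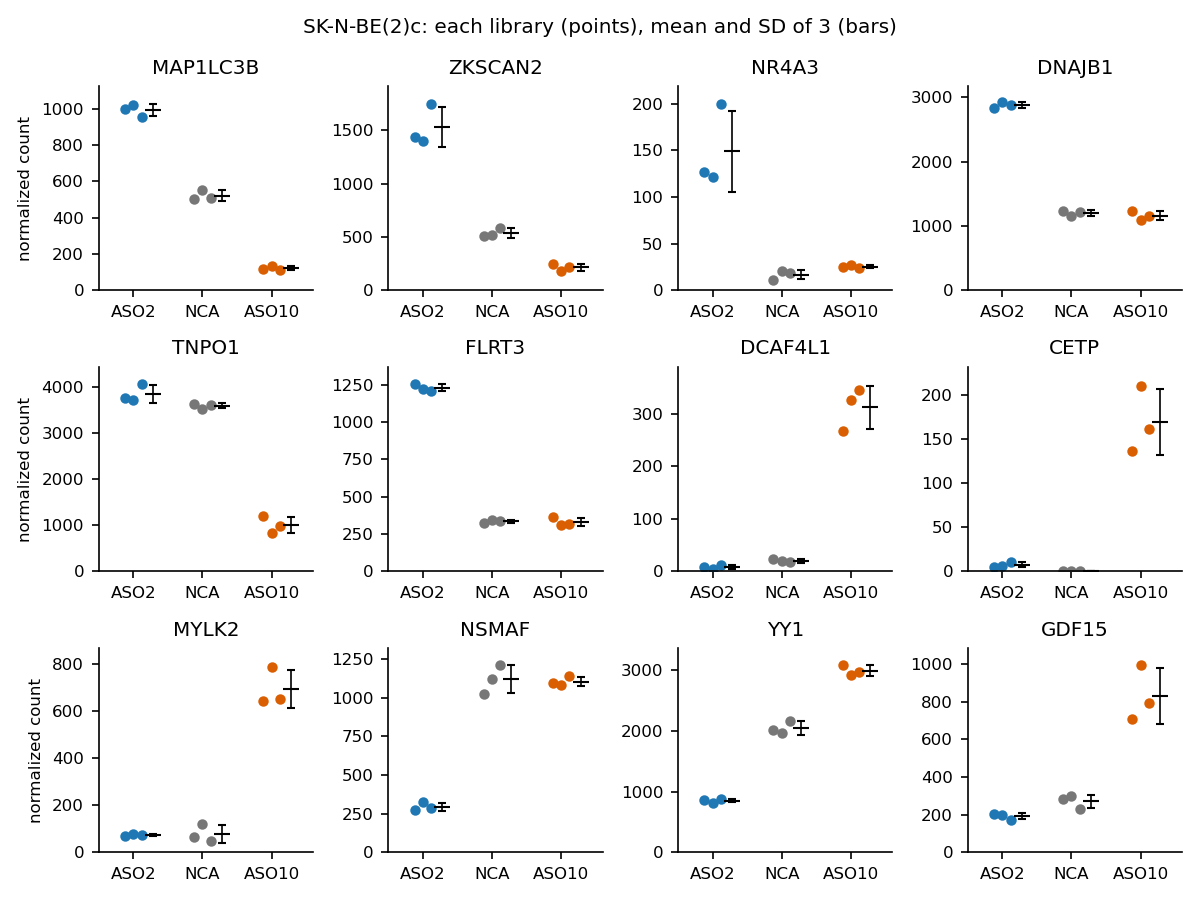
Normalized counts of 12 named genes in each SK-N-BE(2)c library, with 3 points per group and the mean and SD of the 3 as a bar; the vertical axes start at 0 and differ between panels. NCA lies between the ASOs for MAP1LC3B, ZKSCAN2 and YY1, beside ASO10 for DNAJB1 and FLRT3, beside ASO2 for TNPO1 and MYLK2, and only ASO2 is low for NSMAF.

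The NCA libraries placed each difference on a side. Of the 4689 genes higher with ASO2, 29.5% were above NCA with ASO2 and not called with ASO10, 20.6% were below NCA with ASO10 and not called with ASO2, and in 16.3% the ASOs lay on opposite sides of NCA. Of the 4172 genes higher with ASO10, 32.6% were below NCA with ASO2 only, 19.6% above NCA with ASO10 only, and 15.1% on opposite sides. Among the 563 genes at least 1 log2 unit higher with ASO2, opposite sides were the most frequent class, with 212 genes. ASO2 differed from NCA in 67.0% of all genes, with 33.6% above and 33.4% below, and ASO10 in 58.9%, with 27.8% above and 31.1% below. These contrasts share their libraries, so the classes are a description and carry no test.

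In the sharpest cases 1 ASO left a gene within 0.2 log2 units of NCA and uncalled while the other moved it. There were 805 such genes below NCA with ASO10, 522 above NCA with ASO10, 1067 below NCA with ASO2 and 1256 above NCA with ASO2. TNPO1 encodes transportin 1, an import receptor for RNA-binding proteins. It had 3768, 3732 and 4072 with ASO2, close to NCA at 3535 to 3645, and only 1197, 845 and 992 with ASO10 (log2 difference 1.94, SE 0.077, limma adjusted p 3.79e-18). ZXDB (2.28), ZNF800 (1.94), ZFAND1 (1.91) and PNMA1 (1.83) were likewise low with ASO10 alone, and PNMA1 had 450 to 569 there against 1719 to 1815 with ASO2 and 1839 to 1916 with NCA. Genes high with ASO10 alone included the myosin light chain kinase gene MYLK2, at 643, 790 and 652 against 71.8 to 77.1 with ASO2 and 50.1 to 120.0 with NCA (-3.20). QRICH2 (-3.30), the lactase gene LCT (-3.17), the oviductal glycoprotein gene OVGP1 (-2.99) and PNPLA7 (-2.86) followed the same order.

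On the ASO2 side, NSMAF, which couples the TNF receptor to neutral sphingomyelinase, fell to 275, 323 and 288 while ASO10 gave 1095, 1079 and 1137 and NCA 1025 to 1208 (log2 difference -1.90, SE 0.077, limma adjusted p 5.9e-18). NIPAL3 (-2.54), the ubiquitin ligase gene RFFL (-2.21), SERP2 (-2.18) and the ciliary transition zone gene TCTN1 (-1.95) were also low with ASO2 alone. Genes high with ASO2 alone included FLRT3, an adhesion protein of neurons, at 1256, 1223 and 1209 against 308 to 362 with ASO10 and 323 to 347 with NCA (1.90). The TNF receptor gene TNFRSF1A had 209 to 235 with ASO2 against 57.7 to 69.6 with ASO10 and 53 to 67.6 with NCA (1.80). DBX1 (1.94), YPEL5 (1.65) and SDCBP, the gene of the scaffold protein syntenin (1.56), completed this class.

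LINC00682, TMEM33 and DCAF4L1 were treated as a list because earlier results of these data had set them side by side. LINC00682, a long non-coding RNA, had 85.1, 106 and 84.0 with ASO2 and 83.7, 86.9 and 92.1 with ASO10, so the groups overlapped and were not called different (0.06, SE 0.15, limma adjusted p 0.738). The sign of this small difference turned with libraries set to the same total and without ASO2 replicate 2. Its NCA values were 135 to 157, above all 6 ASO libraries. DCAF4L1 differed by -5.11 and TMEM33, the expressed gene before it on the same strand, by 0.74.

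**Figure D3:**
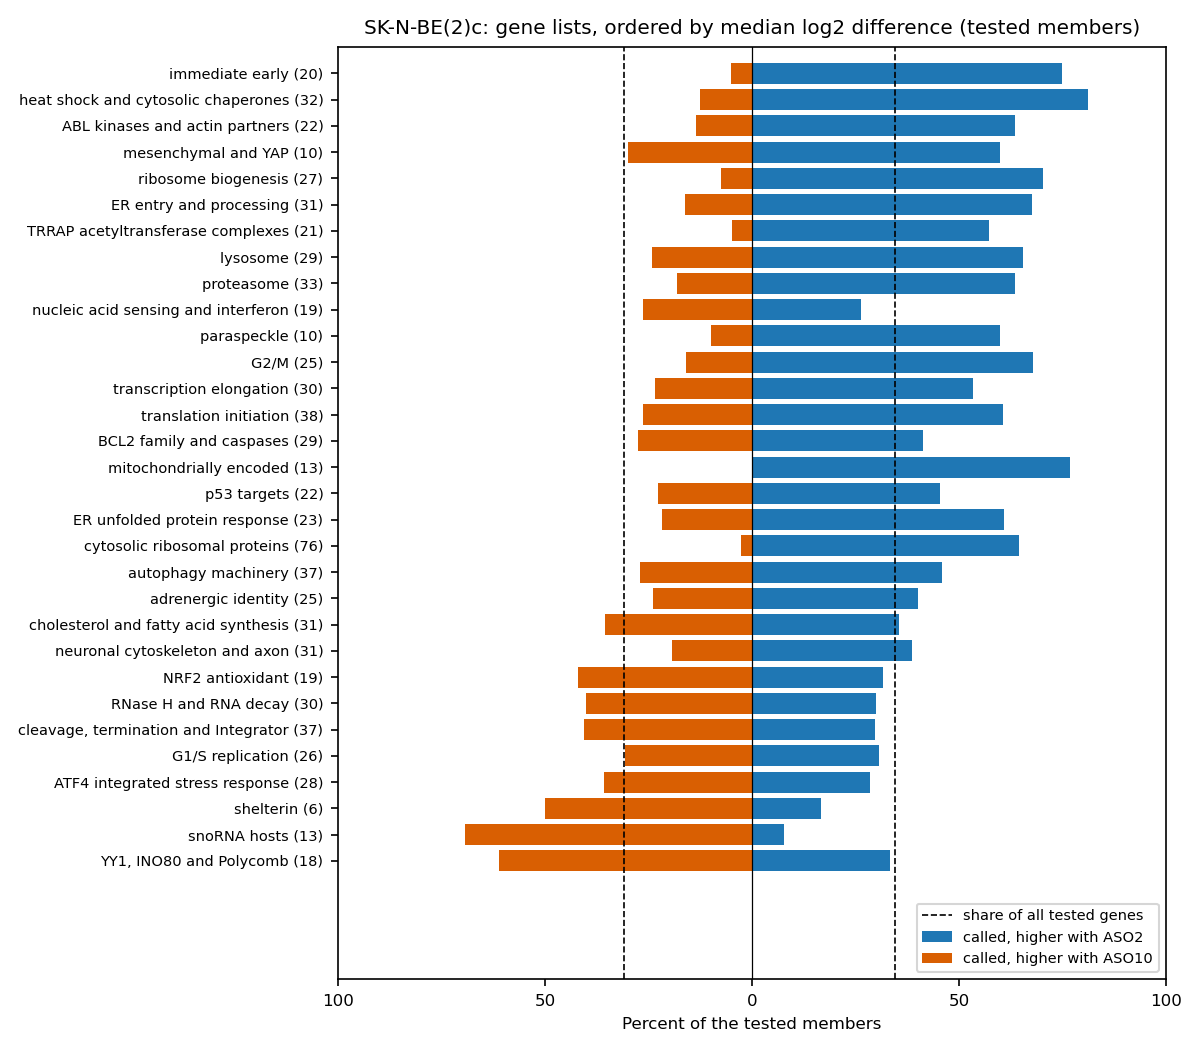
For each gene list with at least 6 tested members, the percent of tested members called higher with ASO2 (blue, to the right) and higher with ASO10 (orange, to the left), with lists ordered by their median log2 difference and the number of tested members in brackets; dashed lines mark 34.6% and 30.8%, the shares over all genes. Immediate early and heat shock genes stand at one end, and snoRNA host genes and the YY1 and Polycomb list at the other.

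Autophagy genes were called in both directions, about as often as genes in general. Of 37 tested genes of the autophagy machinery, 17 were higher with ASO2 and 10 with ASO10 (73.0% called, against 65.4% of all genes). Their median was 0.15, against 0.035 over all genes. At the same total these counts were 15 and 14. Within the ATG8 family the members diverged. MAP1LC3A was lower with ASO2 (26.5, 19.0 and 8.40) than with ASO10 (74.4, 84.9 and 55.9) or NCA (52.3 to 68.6), a difference of -2.05 with an SE of 0.28 and a limma adjusted p of 3.38e-07. GABARAPL1 was higher with ASO2, at 119 to 149 against 63.7 to 65.5 (1.01), and GABARAP differed by 0.56 with groups that did not overlap (82.9 to 102 against 41.9 to 76.7), a call that was lost without ASO10 replicate 1 (adjusted p 0.193), without ASO2 replicate 2 (0.0822) and at the same total (0.0551). GABARAPL2 was not called (0.15, adjusted p 0.0601). LC3B thus differed by more than any other tested member of its family. Its near-identical copy MAP1LC3B2 was below the limit on the mean, and reads that fit both copies cannot be assigned with certainty. RB1CC1, the scaffold of the kinase complex that starts autophagy, had 2555 to 2735 with ASO2 and 885 to 1153 with ASO10 (1.38). TMEM41B, a lipid scramblase needed for autophagosome growth, went the other way (-1.15).

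Lysosomal genes were mostly a little higher with ASO2, with 19 of 29 higher and 7 lower, against 34.6% and 30.8% of all genes. Their median was 0.27, and at the same total 14 were higher and 8 lower. The exceptions were the largest differences of the list. ATP6V0D1, a subunit of the proton pump that acidifies the lysosome, had 378, 345 and 330 with ASO2 against 984, 1092 and 960 with ASO10 and 795 to 873 with NCA (-1.52, SE 0.076, limma adjusted p 5.88e-16). TFEB, the transcription factor that drives lysosomal genes, was at 15.4 to 32.4 with ASO2 and 63.2 to 80.8 with ASO10 (-1.51).

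Proteins enter the ER through the SEC61 channel, and its subunit genes were higher with ASO2 in each case. SEC61A1, the pore-forming subunit, had 9000, 8674 and 9173 normalized counts with ASO2, 3206, 2874 and 2946 with ASO10 and 5960 to 6117 with NCA (log2 difference 1.57, SE 0.051, limma adjusted p 1.45e-19). Its paralog SEC61A2 differed by 0.41, SEC61B by 0.54 and SEC61G by 0.63. For SEC61A1 alone of these 4, ASO10 took the level more than 1 log2 unit below NCA (-1.01), while SEC61A2 was above NCA with both ASOs. Over 31 genes of ER entry and processing, 21 were higher with ASO2 and 5 with ASO10, against 34.6% and 30.8% of all genes. Their median was 0.31, with 17 against 6 at the same total. SRP19, part of the particle that targets nascent chains to the ER, followed SEC61A1 (0.955), and so did the signal peptidase subunit gene SPCS2 (0.68), while the oligosaccharyltransferase subunit gene OSTC was lower with ASO2 (-0.78). Of 23 tested genes of the ER unfolded protein response, 14 were higher with ASO2 and 5 with ASO10 (10 and 6 at the same total). The share called was 82.6%, against 65.4% of all genes, and none of the 23 differed by 1 log2 unit. SEL1L (0.86) and DERL1 (0.86), which act in the removal of misfolded proteins from the ER, led them.

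Heat shock genes and cytosolic chaperones differed as a group more than most lists: 26 of 32 were higher with ASO2 and 4 with ASO10. The share called was 93.8%, against 65.4% of all genes, and the median was 0.41 (23 and 4 genes at the same total). The side that moved was mainly ASO2, with 23 of 32 members above NCA against 6 with ASO10, where 33.6% and 27.8% of all genes were above it. DNAJB1, the inducible partner of HSP70, had 2839, 2933 and 2882 with ASO2, 1236, 1091 and 1164 with ASO10 and 1158 to 1235 with NCA (1.31, SE 0.06, limma adjusted p 6.77e-17). ASO10 thus lay at the control level and ASO2 at 2.48 times the ASO10 mean. HSPH1, an HSP70 nucleotide exchange factor (1.14), and BAG3, a co-chaperone of HSP70 (1.08), had the same form. DNAJB6, which keeps aggregation-prone proteins soluble, was raised by ASO2 and lowered by ASO10 (1.38, with 1206 to 1261 against 432 to 525 and NCA at 722 to 810). HSPA1A and HSPA1B, near-identical copies whose reads cannot be assigned with certainty, differed by only 0.28 and 0.38. The chaperonin genes CCT6A (-0.51) and CCT7 (-0.82) stood against the list and fell below NCA with both ASOs.

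Heat shock factors bind repeats of the 5-base unit nGAAn in alternating orientation, and the promoters of this list were searched for them because its members were higher together. Windows of 250 bases before to 50 bases after the start were taken from RefSeq (GRCh38.p14), and 29 of the 32 tested genes had one. An element of 3 units (GAA, TTC and GAA, or TTC, GAA and TTC, with any 2 bases between neighbouring units) was present in 7 of the 29 (24.1%), against 0.608% of 27305 genes with a window and 0 of 17 immediate early genes. An element of 2 units, GAANNTTC or TTCNNGAA on either strand, which every 3-unit element also contains, was present in 18 of 29 (62.1%) against 16.2% of all genes. Such a match is a description of the letters and not a site shown to be bound. The list was drawn up by gene function from heat shock and chaperone genes, and its called and uncalled members were not compared. Whether these elements have a part in the difference between the ASOs was not tested. The stretches below run 5′ to 3′ on the strand of the gene, and capitals mark elements of 3 units, or of 2 units in DNAJB1. Further 2-unit elements in HSP90AA1 and CHORDC1 are left in lower case. They were chosen to show a gene on opposite sides of NCA (DNAJB6), genes with smaller differences than DNAJB1 (HSP90AA1, HSPA8, CHORDC1) and the leading gene with only 2-unit elements (DNAJB1).
DNAJB6, chr7:157336849-157336909, plus strand: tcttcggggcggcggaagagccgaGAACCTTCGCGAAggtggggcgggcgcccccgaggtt
HSP90AA1, chr14:102087096-102087156, minus strand: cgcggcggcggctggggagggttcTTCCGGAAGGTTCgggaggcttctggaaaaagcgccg
HSPA8, chr11:123062155-123062215, minus strand: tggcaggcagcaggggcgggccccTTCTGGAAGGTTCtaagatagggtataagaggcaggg
CHORDC1, chr11:90223063-90223133, minus strand: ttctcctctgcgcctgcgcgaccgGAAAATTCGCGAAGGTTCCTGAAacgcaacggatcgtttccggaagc
DNAJB1, chr19:14518413-14518498, minus strand: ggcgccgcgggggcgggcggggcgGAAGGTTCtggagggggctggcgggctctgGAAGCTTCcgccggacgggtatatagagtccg

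The element began 131 bases before the start in DNAJB6, 88 in HSP90AA1 and 55 in HSPA8, where a second 3-unit element further from the start is not shown. CHORDC1, a co-chaperone of HSP90, carried 3 overlapping elements that began 60 to 50 bases before its start. Genes with these elements did not share a size of difference. HSP90AA1, the inducible HSP90 gene, differed by 0.41, HSPA8, the constitutive HSC70 gene, by 0.30 and CHORDC1 by 0.63, all below DNAJB1. HSPA8 was not called against NCA with ASO2 (adjusted p 0.992) and was below NCA with ASO10 (-0.30).

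Immediate early genes, which are transcribed within minutes of a stimulus, had the highest median of the lists, 0.48 (80.0% called, against 65.4% of all genes). Of 20 tested, 15 were higher with ASO2 and 1 with ASO10 (13 and 1 at the same total). Both ASOs had moved many of them upward from NCA, 15 with ASO2 and 12 with ASO10 (33.6% and 27.8% of all genes were above NCA). NR4A3, an orphan nuclear receptor, had 127, 122 and 199 with ASO2, 25.1, 27.6 and 24.1 with ASO10 and 11.5 to 21.2 with NCA (2.46, SE 0.25, limma adjusted p 1.11e-09). IER3, a survival regulator, was at 180 to 228 with ASO2 against 52.5 to 58.6 with ASO10 (1.85), and the nuclear receptor gene NR4A2 at 87.6 to 109 against 28.8 to 48.1 (1.44). FOS, a subunit of AP-1, rose with both, to 292 to 334 with ASO2 and 140 to 230 with ASO10 from 44.3 to 89.0 with NCA, so that the ASOs differed by 0.84. In the promoters of 17 of these genes the cAMP response element TGACGTCA was found in DUSP1 and JUND (11.8% against 2.25% of all genes). Neither gene was called between the ASOs.

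**Figure D4:**
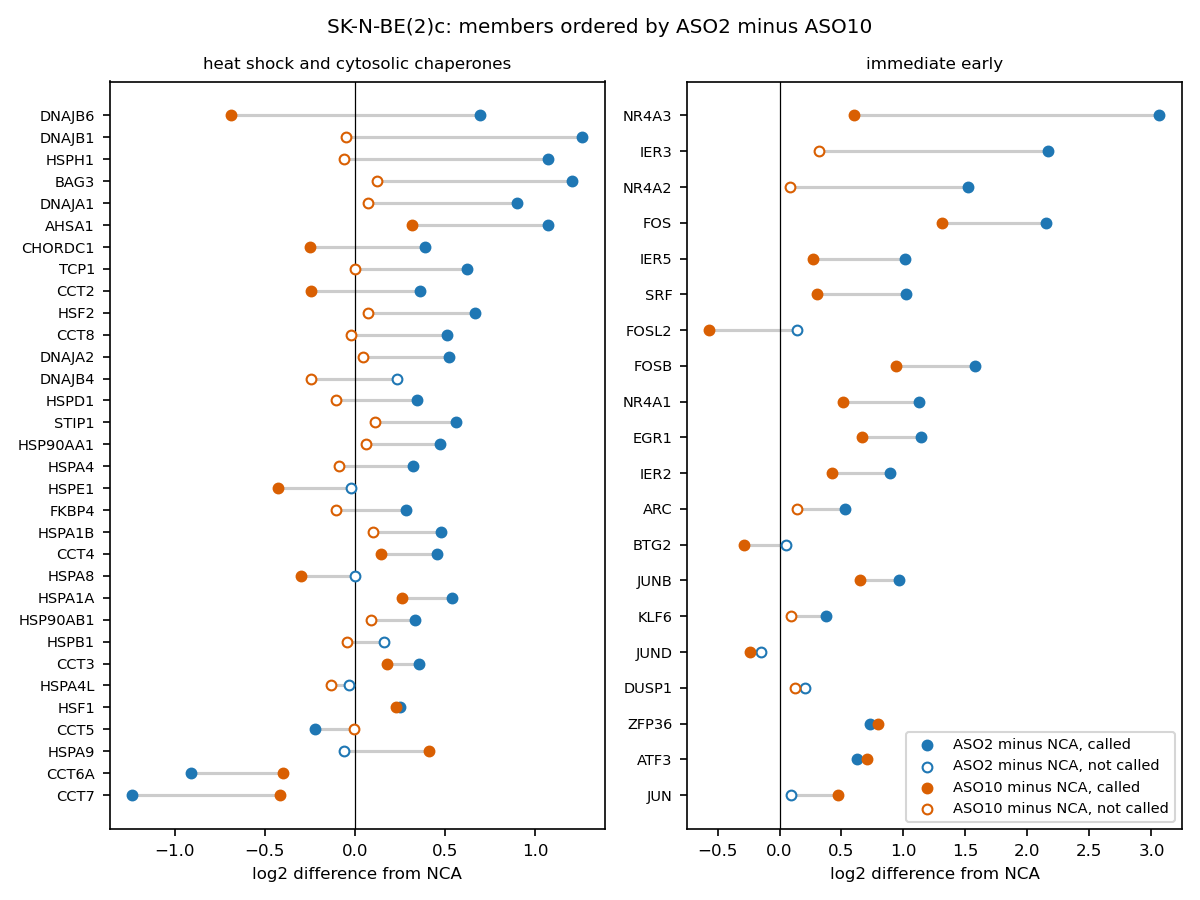
Log2 difference from NCA with ASO2 (blue) and with ASO10 (orange) for each tested heat shock or chaperone gene (left, 32 genes) and immediate early gene (right, 20 genes), ordered by the difference between the ASOs; filled points were called against NCA and open points were not. In the left panel most ASO10 points lie near 0 while 23 ASO2 points are called above it, and in the right panel NR4A3, IER3 and NR4A2 show the widest gaps.

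Genes of the ATF4 integrated stress response did not differ in a single direction between the ASOs. Of 28, 8 were higher with ASO2 and 10 with ASO10 (64.3% called, against 65.4% of all genes), with a median of -0.05. Both ASOs raised most of them over NCA, 23 with ASO2 and 24 with ASO10 of 28, against 33.6% and 27.8% of all genes. ATF4 itself was not called between the ASOs (-0.10, adjusted p 0.114), nor was the asparagine synthetase gene ASNS. GDF15, a secreted stress cytokine, was below NCA with ASO2 (203, 199 and 174 against 232 to 297) and above it with ASO10 (705, 991 and 792), a difference of -2.09 (SE 0.11, limma adjusted p 2.28e-15). The pseudokinase gene TRIB3 rose with both ASOs and further with ASO10 (4760 to 6023 against 2871 to 3388, and 1417 to 2059 with NCA). DDIT3, which encodes CHOP, differed by -0.59. The mitochondrial folate enzymes split: ALDH1L2 was lower with ASO2 (-1.75) and MTHFD2 higher (1.02).

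Cell death genes were called about as often as genes in general. Of 29 tested BCL2 family, caspase and inhibitor genes, 12 were higher with ASO2 and 8 with ASO10 (69.0% called, against 65.4% of all genes). BMF, a BH3-only protein that promotes apoptosis, had 189, 192 and 164 with ASO2, 32.6, 41.9 and 46.5 with ASO10 and 40.8 to 54.9 with NCA (2.16, SE 0.18, limma adjusted p 2.95e-11). HRK, another BH3-only gene, went the other way at low level (4.53 to 11.1 against 30.1 to 35.8), and CASP9, the initiator caspase of the mitochondrial pathway, was higher with ASO2 (0.87). DIABLO, which frees caspases from their inhibitors, was low with ASO2 only (113 to 176 against 361 to 444, with NCA at 373 to 420). Of 22 tested p53 target genes, 10 were higher with ASO2 and 5 with ASO10, also near the share of all genes (68.2% called). TP53INP1, which promotes autophagy and cell death, had 198 to 226 with ASO2 and 67.5 to 72.3 with ASO10 (1.59), while the death receptor gene FAS was higher with ASO10 at 19.4 to 36.3 against 4.42 to 7.25 (-1.96). CDKN1A, the main p53 target of cell cycle arrest, was not called (0.08, adjusted p 0.712). Among 19 NRF2 targets, 6 were higher with ASO2 and 8 with ASO10 (73.7% called, against 65.4% of all genes). The quinone reductase gene NQO1 was raised by ASO2 and lowered by ASO10 (1859 to 2107 against 533 to 586, and NCA at 989 to 1124), whereas the haem oxygenase gene HMOX1 rose with ASO10 only (-1.13).

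Single components of the transcription machinery differed widely. RPRD2, which binds the tail of RNA polymerase II, had 808, 797 and 795 with ASO2, 3118, 3519 and 3280 with ASO10 and 1678 to 1714 with NCA (-2.04, SE 0.058, limma adjusted p 1.99e-20). NUDT21, the cleavage factor subunit that steers the choice of poly(A) site, was the reverse at 3335 to 3432, 894 to 1224 and 2511 to 2639 (1.70). In their list of 37 cleavage, termination and Integrator genes, 11 were higher with ASO2 and 15 with ASO10 (9 and 19 at the same total). The share called was 70.3%, near the 65.4% of all genes. Cyclin K, the partner of CDK12 and CDK13 encoded by CCNK, was low with ASO2 alone at 280 to 310, with ASO10 at 1050 to 1077 and NCA at 1034 to 1208 (-1.86). Other elongation genes were higher with ASO2, among them ELL (1.52), ELL2 (1.53, at low level) and AFF1 (1.13) of the super elongation complex. Their list had 16 of 30 higher and 7 lower, against 34.6% and 30.8% of all genes. TRRAP, the scaffold of histone acetyltransferase complexes, had 3679 to 3923 with ASO2 and 983 to 1161 with ASO10 (1.85), and SUPT20H of the SAGA complex differed by 1.34. Of 21 genes of those complexes, 12 were higher with ASO2 and 1 with ASO10 (61.9% called, against 65.4% of all genes).

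The transcription factor YY1 was at 862, 818 and 878 with ASO2, 3087, 2912 and 2958 with ASO10 and 1960 to 2167 with NCA (-1.81, SE 0.058, limma adjusted p 1.45e-19). It lay on opposite sides of NCA with wide gaps. The median of its list of INO80 and Polycomb genes was -0.34 (94.4% called, against 65.4% of all genes). In that list 11 of 18 were higher with ASO10 and 6 with ASO2. YY2, its retrogene, differed by -0.85 at low level (adjusted p 0.0388), a call that was lost in DESeq2 (adjusted p 0.0585), with no filter (0.121) and without ASO2 replicate 1 (0.134) or 2 (0.0861) or ASO10 replicate 1 (0.172) or 2 (0.06). The telomere protein gene TERF2IP had 414 to 472 with ASO2 against 1828 to 1970 with ASO10 and 1528 to 1601 with NCA (-2.10), and TERF1 of the same shelterin complex was at 78.0 to 79.8 against 212 to 221 (-1.46). Of the 6 shelterin genes tested, 3 were higher with ASO10 and 1 with ASO2 (66.7% called, near the 65.4% of all genes). RNASEH1, the enzyme that many ASOs recruit, did not differ between the ASOs (0.08, limma adjusted p 0.314) and was above NCA with both. The share called in the RNA decay list was 70.0%, near the 65.4% of all genes. This list had 9 of 30 higher with ASO2 and 12 with ASO10 (6 and 14 at the same total). SMG5, a factor of nonsense-mediated decay (-1.21), and RNASEH2B (-1.15) led it.

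Protein synthesis genes were mostly higher with ASO2, by small amounts. Of 76 tested cytosolic ribosomal protein genes, 49 were higher with ASO2 and 2 with ASO10, against 34.6% and 30.8% of all genes. Their median was 0.18. With libraries set to the same total the counts were 25 and 10. Both ASOs raised these genes over NCA, 71 of 76 with ASO2 and 58 with ASO10, against 33.6% and 27.8% of all genes. RPL9 (1.00) and RPL7 (0.95) were the largest, and both have many processed copies in the genome that can share their reads. Ribosome biogenesis genes had 19 of 27 higher with ASO2 and 2 with ASO10 (16 and 4 at the same total). The share called was 77.8%, against 65.4% of all genes, with RRP1 (1.02) and the nucleolar helicase gene DDX21 (0.91) first. Of 38 initiation factor genes, 23 were higher with ASO2 and 10 with ASO10 (17 and 12 at the same total). Here 86.8% were called, against 65.4% of all genes. EIF4G2, a scaffold for initiation without cap binding by eIF4E, had 21330, 20930 and 22570 with ASO2, 7619, 6361 and 6945 with ASO10 and 15740 to 17140 with NCA (1.63, SE 0.055, limma adjusted p 2.81e-19). The initiation subunit gene EIF3L (0.995) followed.

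Hosts of small nucleolar RNAs (snoRNAs) went against the ribosomal genes. Their spliced transcripts are mostly degraded when they are translated. Of 13 host genes, 9 were higher with ASO10 and 1 with ASO2 (median -0.23), and 12 were above NCA with each ASO (33.6% and 27.8% of all genes). SNHG8 had 1558 to 1577 with ASO2, 2144 to 2602 with ASO10 and 1075 to 1274 with NCA (-0.60), and SNHG32 followed (-0.57). Among the snoRNAs themselves, 10 of 29 tested were higher with ASO2 and 0 with ASO10, against 34.6% and 30.8% of all genes. These were singled out after their values had been seen. The ASO2 mean of SNORA23 was 57.0 against 1.88 with ASO10 and 2.32 with NCA, a difference of 4.29 at a limma adjusted p of 1.49e-08. The means of SNORA71A were 52.5, 12.6 and 9.48 in that order (2.00). SNORD12, which lies in an intron of ZFAS1, was higher with ASO2 (43.5 against 19.0, 1.20), while ZFAS1 was higher with ASO10 (5162 against 4461, -0.21). The SNORA71 copies resemble each other, and the counts of RNAs this short depend on the library kit, whose part in these values was not tested.

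Of 25 adrenergic identity genes, 10 were higher with ASO2 and 6 with ASO10. The share called was 64.0%, near the 65.4% of all genes. None of the 25 differed by 1 log2 unit, and their median was 0.11, which was -0.00 at the same total. Against NCA, 15 of 25 were lower with ASO2 and 17 with ASO10, against 33.4% and 31.1% of all genes. The transcription factor gene PHOX2A was not called between the ASOs (0.07, limma adjusted p 0.322), and MYCN differed by -0.16. The noradrenaline transporter gene SLC6A2 was the largest difference, 1813 to 2016 against 3374 to 3700 with NCA above both at 5318 to 5491 (-0.89), and the transcription factor gene ISL1 the next (0.75). Of the mesenchymal and YAP list only 10 of 24 genes were tested. Among them 6 were higher with ASO2 and 3 with ASO10 (90.0% called, against 65.4% of all genes), with a median of 0.37. The largest difference went against most of the list. NOTCH3, a receptor that can drive the mesenchymal state, had 39.8, 31.7 and 14.4 with ASO2, 451, 553 and 428 with ASO10 and 89.6 to 139 with NCA, a 16.7-fold difference between the ASO means (-4.12, SE 0.23, limma adjusted p 3.71e-15). COL1A1 went the other way at low level (1.54), and its call was lost without ASO10 replicate 3 (adjusted p 0.0571).

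Cytoskeletal genes included further wide gaps. The kinase gene ABL1 had 4745, 4678 and 4607 with ASO2, 1388, 1341 and 1398 with ASO10 and 2059 to 2418 with NCA (1.76, SE 0.058, limma adjusted p 1.74e-19), and 14 of 22 tested genes of its list were higher with ASO2. That list had 3 genes higher with ASO10 and 77.3% called, against 65.4% of all genes. CDC42, a small GTPase that organises actin, was at 1637 to 1647 against 586 to 648 (1.39). The microtubule protein gene DCX of migrating neurons was raised by ASO2 and lowered by ASO10 (1.53). It had 985 to 1206 with ASO2, 354 to 414 with ASO10 and 610 to 641 with NCA. The 31 neuronal cytoskeleton genes had 12 higher, 6 lower and a median of 0.00 (10, 10 and -0.11 at the same total). The share called there was 58.1%, under the 65.4% of all genes.

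In the cell cycle, 17 of 25 G2/M genes were higher with ASO2 and 4 with ASO10 (13 and 6 at the same total). Over all genes the shares were 34.6% and 30.8%. BUB1 of the spindle checkpoint was at 1094 to 1292 against 443 to 506 (1.33), and AURKA differed by 0.95. Of 26 G1/S replication genes, 8 were higher with each ASO (6 with ASO2 and 12 with ASO10 at the same total). Their share of calls was 61.5%, near the 65.4% of all genes. CDC45, a subunit of the replicative helicase, was lower with ASO2 (401 to 526 against 1228 to 1327, -1.42). Proteasome genes had 21 of 33 higher with ASO2 and 6 with ASO10 (81.8% called, against 65.4% of all genes). PSMA2 (0.81) and PSMA5 (-0.855) were at the ends. Mitochondrially encoded genes had 10 of 13 higher and 0 lower (5 and 1 at the same total). They had 76.9% called, against 65.4% of all genes, and were led by MT-ND6 (0.585) and MT-ATP8 (0.38). Cholesterol and fatty acid genes were even at 11 and 11 of 31 (71.0% called, against 65.4% of all genes). Their median of 0.04 turned negative at the same total. At the ends were ACSS2, which makes acetyl-CoA from acetate (-1.055), and the sterol carrier gene STARD4 (0.92). In the interferon list, 5 of 19 were higher with each ASO (52.6% called, against 65.4% of all genes). The list median was 0.26, toward ASO2, although its largest called differences were higher with ASO10. OAS2, a sensor of double-stranded RNA, had 3.63 to 7.20 with ASO2 and 46.5 to 74.7 with ASO10 (-3.25). Its NCA mean was 5.38, so it passed the limit on the mean through the ASO10 libraries. IFI27 had 11.8 to 19.2 against 78.3 to 92.1 (-2.28). NEAT1, the RNA scaffold of paraspeckles, was at 542 and 545 with the ASOs and at 2133 with NCA, below NCA with both and not called between the ASOs (adjusted p 0.938). The nuclear RNA MALAT1 was below NCA with both ASOs and lower with ASO10 (561 to 654 against 887 to 926, 0.58), and DAZAP1, a paraspeckle protein gene, differed by 1.22.

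The called genes shared features, of which GC content, span and gene class had not been used by the test. Mean level had been used, in the limit on the mean and in the mean-variance trend. Tested genes were ranked on the GC content of their longest transcript (GENCODE 29) and divided into 4 groups of near equal size. The share higher with ASO2 fell from 45.6% in the group poorest in GC to 25.9% in the richest, and the share higher with ASO10 rose from 22.4% to 38.1%. Divided in the same way by mean level, 12.2% of the lowest genes were higher with ASO2 and 51.3% of the highest, while the share higher with ASO10 was 32.6% and 27.1%. The lowest group includes genes, such as LGALS9, that passed the limit on the mean through the ASO10 libraries. Of 1025 long non-coding RNAs, 132 (12.9%) were higher with ASO2 and 342 (33.4%) with ASO10, with a median of -0.28. Of 11684 protein-coding genes, 4413 (37.8%) and 3610 (30.9%) were, with a median of 0.06. The long non-coding RNAs thus differed mainly in the share higher with ASO2, while the share higher with ASO10 was near the 30.8% of all genes. Genes of the longest genomic span were below NCA with both ASOs, with medians of -0.39 and -0.28. GC content, level, span and gene class were not separated from each other.

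The genes much higher with ASO10 were compared with the gene before them on the chromosome. Of 325 genes at least 2 log2 units higher with ASO10 and with an expressed neighbour on their 5′ side, 277 (85.2%) lay on the strand of that neighbour, against 55.1% of all 13216 genes and 53.1% of the 32 genes as far apart in the other direction. Level moved with this share. The 325 genes had a median of 10.0 normalized counts with NCA, against 373.4 over all genes, and 49.5% of them were under 10. Many genes this low with NCA passed the limit on the mean through the libraries in which they were high, so neither their number nor their share supports a difference. Among all 449 tested genes under 10 with NCA, whatever their difference, 83.1% lay on the strand of the neighbour. A split at 10 with NCA was chosen after the values were seen. Above it, the share was 76.8% of 164 genes much higher with ASO10 and 54.1% of all 12767 genes, and the part of level within that range was not tested. The neighbours of the 325 genes differed in both directions, with 108 higher with ASO2, 133 higher with ASO10 and 84 not called, and a median size of 0.46 log2 units against 0.40 for the neighbours of all genes. The gene before SLC5A11 is TNRC6A, at 2322 with ASO2 and 2319 with ASO10, that before CETP is HERPUD1 (1742 and 1725), and that before EFCAB8, a gene without a symbol, was also not called. The genes before ALPK3, ANPEP and FHDC1 were themselves higher with ASO10, ZNF592 at 1633 against 817.5, AP3S2 at 335 against 170.9 and ARFIP1 at 175.7 against 78.5. Before MYLK2 lies TPX2, which was lower with ASO10 (5688 against 8291). Genes at least 1 log2 unit higher with ASO10 were on the strand of their neighbour in 69.2% of 1281 cases, and those higher with ASO2 in 53.4% of 543. Since the table counts reads per gene, it does not show whether reads in these genes began at their own start.

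NGP, another MYCN-amplified neuroblastoma line, had been given the same pair of ASOs in 3 libraries each, and this supplied libraries that the SK-N-BE(2)c contrast had not used. In NGP 58.6% of 14440 tested genes were called. Of the 1674 genes at least 1 log2 unit apart in SK-N-BE(2)c and tested in NGP, 1515 (90.5%) were called with the same sign there and 2 with the opposite sign. The 6310 genes called in both lines had the same sign in 6198 cases. Across the 12637 genes tested in both, the log2 differences had a Pearson correlation of 0.858, given as a description since the ASOs are shared and genes are not independent. Differences were on median somewhat larger in SK-N-BE(2)c, 0.40 against 0.34 log2 units in size. For SLC5A11, DCAF4L1, RAPSN and ANPEP, the NGP differences were -6.63, -4.96, -5.31 and -5.05, and for RPRD2, TERF2IP, YY1, TRRAP, ABL1 and EIF4G2 they were -1.88, -2.06, -1.92, 1.94, 1.75 and 1.64.

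**Figure D5:**
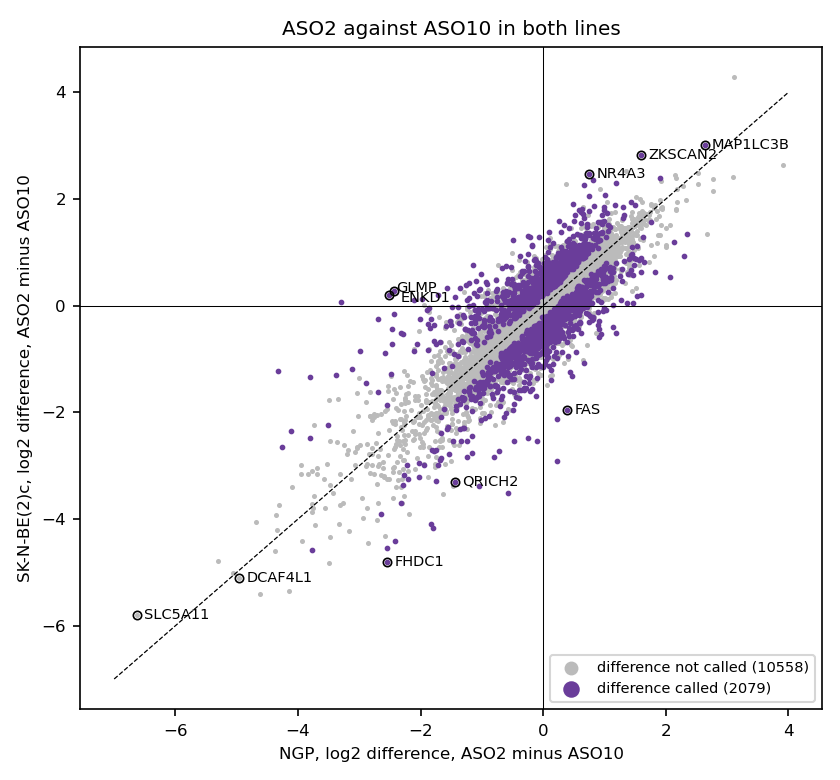
Log2 difference between ASO2 and ASO10 in NGP (horizontal) and SK-N-BE(2)c (vertical) for the 12637 genes tested in both lines; purple points were called in the test of the difference between lines, and the dashed line marks equal values. Most points follow the dashed line, while GLMP and ENKD1 lie far to the left near 0 on the vertical axis and NR4A3 lies above the line.

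The test of the difference between the lines called 16.5% of these genes, 8.82% with a higher value in SK-N-BE(2)c and 7.63% with a lower one. The immediate early list differed in 9 of 20 cases, each higher in SK-N-BE(2)c, and their median was 0.48 there and 0.10 in NGP. Heat shock genes differed in 15 of 32, of which 13 were higher in SK-N-BE(2)c (medians 0.41 and 0.22). Cholesterol and fatty acid genes differed in 18 of 31, with 17 higher in SK-N-BE(2)c, where the median was 0.04 against -0.35 in NGP. The ATF4 list differed in 14 of 28, with 12 lower in SK-N-BE(2)c (-0.05 and 0.21), and p53 targets in 13 of 22, with 11 higher (0.20 and -0.02). Ribosomal protein genes differed in 16 of 76, all 16 higher in SK-N-BE(2)c (0.18 and 0.01). For YY1, INO80 and Polycomb genes 1 of 18 differed between the lines, with medians of -0.34 in SK-N-BE(2)c and -0.02 in NGP, and for the RNA decay list 2 of 30 (-0.04 and 0.01).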

How the data were processed

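Gene expression was measured by RNA sequencing. The authors deposited normalized gene counts, here a signal, as one table per cell line. Per the submitters' processing notes, FastQC 0.11.8, cutadapt 1.18, STAR 2.6.0, HTSeq 0.6.1 and DESeq2 1.42.0 were used with hg19 (GRCh37); whether counting used strand is not given in the sources used here. The steps between low values returned 1 size factor per library and whole reads for 100% of values (within 0.05 of a read). The values were compared as log2(value + 1) by limma 3.58.1 (R 4.3.3), with a mean per group over 9 libraries, a mean-variance trend and Benjamini-Hochberg adjustment over all genes with a mean of at least 10. The lines were compared in 1 model of 18 libraries. Recovered reads went into edgeR 4.0.16 and DESeq2 1.42.0 as alternatives. Gene symbols were matched for 89.8% of 57905 genes; of 872 memberships of the 32 lists, 814 were tested, 50 were under that mean and 8 were not matched. The fit was tested on simulated data.

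The members and lists were chosen with earlier results of these data known. The text names, per direction, the 8 largest called differences with groups that do not overlap and a mean of at least 100 in the higher group, the 5 largest of each one-sided class, up to 4 per list, the ATG8 and SEC61 families, and the 4 per direction that differ most between lines with opposite signs. Genes outside this rule are given as list members, and some results are not reported here. The NCA columns carry one spelling for replicate 1 and another for replicates 2 and 3; their titles place them in 1 group. Gene order, strand, span and GC content came from GENCODE 29, and no GRCh38 coordinates were applied to the tables. Intervals of counting error are not given because the replicate spread exceeds it.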

Additional observations from a re-analysis of the deposited data

Results flagged for a closer look

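ASO2 minus ASO10 was tested for a difference between SK-N-BE(2)c and NGP by an interaction term in limma over 18 libraries. Of the 125 named genes 54 differed, against 16.5% of all 12637 genes. Most had been named for large differences in SK-N-BE(2)c, and 4 per direction for the difference between lines itself. The choice of genes thus favoured larger differences in SK-N-BE(2)c, so neither their number nor their direction supports a difference. Values below are the SK-N-BE(2)c difference minus the NGP difference, in log2 units, with adjusted p-values over all 12637 genes where given. No explanation was tested.

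The sign itself differed for GLMP, a lysosomal membrane protein gene, by 2.73 (0.21 in SK-N-BE(2)c against -2.52 in NGP, adjusted p 1.42e-09), and for ENKD1, which binds microtubules, by 2.71 (0.28 against -2.44, adjusted p 9.61e-10). In SK-N-BE(2)c both differences were small, and the ENKD1 call there was lost when the libraries were set to the same total (adjusted p 0.0901). The GLMP call was lost there too (0.327), and in DESeq2 (0.087), in edgeR (0.0691), without ASO10 replicate 1 (0.122) and without ASO2 replicate 1 (0.0943). The GTPase gene RHOF (1.64) and the clock output gene DBP (1.39) were also higher with ASO2 in SK-N-BE(2)c and lower in NGP. The reverse held for DOCK5 (-1.35), the tryptophanyl-tRNA synthetase gene WARS1 (-1.12), HSDL2 (-0.998) and the transcription factor gene ETV6 (-0.94). FAS, at low counts, differed by -2.35 (adjusted p 1.94e-05) and FOS by 1.14 (adjusted p 0.00232); in NGP both had the other sign.

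Among genes of the same sign in both lines and larger in SK-N-BE(2)c were NR4A3 (1.71), IER3 (0.87), ZFAND1 (1.41), ZKSCAN2 (1.23), YPEL5 (0.99), FLRT3 (0.73), SDCBP (0.61), TNPO1 (0.50), AP5Z1 (0.48) and MAP1LC3B (0.39, adjusted p 0.0252). NQO1 differed by 1.21, TP53INP1 by 1.08, DCX by 0.82, ELAVL3 by 0.29, HSPH1 by 0.55, MTHFD2 by 0.57, CDC42 by 0.44, ISL1 by 0.21 and STARD4, a sterol carrier gene, by 0.88. The mitotic genes BUB1 (0.45) and AURKA (0.33), the translation genes RPL9 (0.66) and EIF3L (0.26), PSMA2 (0.45), MT-ND6 (0.40) and the nuclear RNA MALAT1 (0.51) belonged to the same class. In NGP the ASO differences of STARD4 (0.036, limma adjusted p 0.759) and MALAT1 (0.069, limma adjusted p 0.316) were not called, so their sign there is uncertain.

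Lower values in SK-N-BE(2)c, where the gene was further above ASO2 with ASO10, were found for FHDC1 (-2.26), QRICH2 (-1.87), NIPAL3 (-1.30), PNPLA7 (-1.19), ALPK3 (-0.80), OVGP1 (-0.77), NSMAF (-0.645) and TCTN1 (-0.53). GDF15 differed by -1.46, HMOX1 by -1.07, IFI27 by -0.996, TRIB3 by -0.65, ALDH1L2 by -0.35, CDC45 by -0.44, ATP6V0D1 by -0.43 and SLC6A2 by -0.31. The ASO differences of HMOX1 (-0.055, limma adjusted p 0.909) and TRIB3 (-0.133, limma adjusted p 0.299) were not called in NGP. Among the 54 genes with a called difference between lines, SEC61A1 was the 1 gene higher with ASO2 in both lines and by less in SK-N-BE(2)c (-0.19, adjusted p 0.048), and SNHG32 the 1 gene higher with ASO10 in both and by less in SK-N-BE(2)c (0.30, adjusted p 0.0217).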

How the results depend on the processing

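The number of genes called between ASO2 and ASO10 changed little with the tool or scaling, but the balance of directions depended on the scaling. Against 8861 with limma, edgeR called 8828 and DESeq2 8441 on the recovered reads, and 8572 and 8333 genes were called by both tools with the same sign. Setting the libraries to the same total gave 3678 calls in favour of ASO2 and 5016 in favour of ASO10, a share of 42.3% higher with ASO2, against 53.9% by the upper quartile, 53.1% by TMM factors, 50.1% by edgeR and 50.5% by DESeq2. A size of at least 1 log2 unit left 1883 genes (563 higher with ASO2, 1320 with ASO10) and 222 in the difference between lines. With a mean of at least 50, genes above NCA with ASO10 alone fell from 816 to 488.

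Leaving out each of the 9 libraries in turn gave 8216 to 8909 genes, 4358 to 4720 higher with ASO2 and 3858 to 4189 higher with ASO10. In the difference between lines, leaving out each of the 6 SK-N-BE(2)c ASO libraries gave 1622 to 1889; the NGP and NCA libraries were not left out there. The replicate numbers share no stated batch, and same-numbered ASO2 and ASO10 libraries did not deviate together (correlations -0.00697, -0.0279 and 0.0117), so the samples share only a number. With the replicate block 8980 genes were called, 4755 and 4225 by direction, and 2262 in the difference between lines.

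Of 2611 recomputed results for 125 named genes, 2592 kept their side of the threshold, 17 lost their call and 2 gained one. The sign turned in 2, both of LINC00682, which was not called in any (-0.052 at the same total and -0.049 without ASO2 replicate 2). Of 123 called genes 118 were called throughout with 1 sign, the exceptions being COL1A1, YY2, GABARAP, GLMP and ENKD1, and GABARAPL2 gained calls. Genes at least 2 log2 units higher with ASO10 lay on the strand of their 5′ neighbour in 85.2%, and in 76.8% of those with an NCA mean of at least 10, a limit chosen after seeing the data. Depth limits the lowest genes, where a fold between low values is uncertain.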
